A study of Mus musculus with 24 samples.

Results

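The 5 fibroblast growth factor (FGF) receptor genes of the mouse, Fgfr1, Fgfr2, Fgfr3, Fgfr4 and Fgfrl1, were taken by name from 21887 protein-coding genes, and the H3K9ac peaks at their starts, at their ends and inside them were measured library by library. H3K9ac is histone H3 acetylated at lysine 9, a mark of active promoters and enhancers. Antibody-bound chromatin was sequenced from embryoid bodies at day 5, which are aggregates that embryonic stem cells form on differentiating. The 4 null libraries came from Gcn5-/- cells, with 2 replicates each of isolates 4_C2 and 6_C4, and the 4 floxed libraries from Gcn5fx/fx cells, with 2 replicates each of isolates 4_1 and 6_1. All cells are labelled C57BL/6, and each genotype rests on 2 isolates. By their shared leading number, 4_C2 and 4_1 are taken as isolate pair 4, and 6_C4 and 6_1 as isolate pair 6. Gcn5, the product of Kat2a, is a histone acetyltransferase, and the study's title links it to FGF signalling.

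FGF receptors 1 to 4 are receptor tyrosine kinases. An FGF ligand and heparan sulphate bring receptors together at the cell surface, the kinases phosphorylate each other, and docking proteins such as FRS2 pass the signal to RAS and ERK, to PI3 kinase and to phospholipase C gamma. In embryonic stem cells, FGF4 acting through ERK moves cells out of naive pluripotency. Fgfr1 is the main receptor of the epiblast and of early mesoderm, and Fgfr2 is best known from primitive endoderm and epithelia. Fgfr3 restrains growth of cartilage and bone, and Fgfr4 acts in liver and muscle. Fgfrl1 binds FGF ligands but has no kinase domain.

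A peak at the gene start, taken as any overlap with 1 kb either side of it, was found in all 8 libraries for Fgfr1, Fgfr2, Fgfr3 and Fgfrl1, and in 4 libraries for Fgfr4. Among 17493 genes with a known strand, 44.8% had a start peak in all 8 libraries, 15.5% in 1 to 7 and 39.7% in none. No receptor had a peak at its far end except Fgfr3, in 1 library. Only Fgfr1 had peaks deep inside the gene, in 6 libraries. The receptors thus differed in where the mark lay rather than in whether it was there, apart from Fgfr4.

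The lists hold positions without heights, so acetylation strength was not measured, and the depth of the libraries is unknown. List length moved with both comparisons, and its part in the results was not tested beyond the scaled and equal-length measures. The lists held 12041 to 18932 peaks in null and 13260 to 20809 in floxed libraries, and 17849 to 20809 in pair 6 against 12041 to 15315 in pair 4. Kat2a had a start peak in all 8 libraries, which does not check the genotype, because no source used here gives the deleted part. Of 21 marker genes of pluripotency, epiblast, the germ layers, extraembryonic cells, blood and endothelium with a known strand, 5 had a start peak in all 8 libraries, namely Sox2, Fgf5, Dnmt3b, Nes and Tal1, 9 had it in fewer and 1 in more null than floxed libraries, and 12 had it in more pair 6 than pair 4 libraries. Of all 17493 genes, 9.52% had a start peak in fewer null than floxed libraries, 2.7% in more, and 12.9% in more pair 6 than pair 4 libraries. Only the 2712 genes with a start peak in 1 to 7 libraries can differ in this way. Of them 1665, 472 and 2260 did so in that order, beside 9, 1 and 12 of 13 marker genes. In mixed aggregates, fewer cells carrying a mark and less of it per cell cannot be told apart. The experiments are called independent, but separate cultures are not named, so the p-values measure only how far these libraries spread, which may be technical.

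The promoters are shown because the start peaks of the receptors sit differently on them. Each run covers 250 bases before to 50 after an annotated start, 5′ to 3′ on the gene's own strand, from RefSeq on GRCm38.p6. Capitals mark 4 motifs searched on both strands, the E-box CACGTG that Myc and Max bind, the GC box GGGCGG that Sp1 binds, the CCAAT box CCAAT and the TATA box TATAAA. Of the receptors 4 matched the promoter table, Fgfr3 with 2 starts, and Fgfr1 had no entry.
Fgfr2, chr7:130266759-130267058, minus strand: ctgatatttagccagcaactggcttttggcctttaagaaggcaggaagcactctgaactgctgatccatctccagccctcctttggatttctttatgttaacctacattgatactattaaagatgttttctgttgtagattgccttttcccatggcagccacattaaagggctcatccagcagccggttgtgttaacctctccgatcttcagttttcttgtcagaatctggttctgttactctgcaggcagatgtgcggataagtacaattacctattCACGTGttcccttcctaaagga
Fgfr3, upper start, chr5:33721474-33721773, plus strand: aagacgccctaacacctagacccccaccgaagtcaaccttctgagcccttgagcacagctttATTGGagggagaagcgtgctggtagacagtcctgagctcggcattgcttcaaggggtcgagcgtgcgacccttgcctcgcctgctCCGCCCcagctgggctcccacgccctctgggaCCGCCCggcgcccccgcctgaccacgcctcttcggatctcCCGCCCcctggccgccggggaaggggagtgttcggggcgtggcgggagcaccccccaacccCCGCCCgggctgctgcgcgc
Fgfr3, inner start, chr5:33722056-33722355, plus strand: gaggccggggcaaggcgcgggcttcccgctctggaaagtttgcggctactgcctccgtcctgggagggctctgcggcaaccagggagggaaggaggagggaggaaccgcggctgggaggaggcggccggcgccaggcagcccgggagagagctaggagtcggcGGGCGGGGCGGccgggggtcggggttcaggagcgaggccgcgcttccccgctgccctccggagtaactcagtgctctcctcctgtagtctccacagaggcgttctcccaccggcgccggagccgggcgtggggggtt
Fgfr4, chr13:55152568-55152867, plus strand: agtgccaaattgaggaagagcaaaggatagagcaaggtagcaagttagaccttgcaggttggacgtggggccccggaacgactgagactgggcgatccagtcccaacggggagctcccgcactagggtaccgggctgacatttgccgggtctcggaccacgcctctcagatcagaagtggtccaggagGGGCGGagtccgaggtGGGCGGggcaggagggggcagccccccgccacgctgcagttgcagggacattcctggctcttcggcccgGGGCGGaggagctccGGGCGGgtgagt
Fgfrl1, chr5:108693979-108694278, plus strand: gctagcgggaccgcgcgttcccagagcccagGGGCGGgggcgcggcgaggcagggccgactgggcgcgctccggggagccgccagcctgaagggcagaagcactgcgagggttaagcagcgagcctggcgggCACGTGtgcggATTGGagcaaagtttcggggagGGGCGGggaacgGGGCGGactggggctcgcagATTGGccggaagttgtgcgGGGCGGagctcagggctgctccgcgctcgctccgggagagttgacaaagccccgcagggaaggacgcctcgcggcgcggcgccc

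The Fgfr2 promoter stood apart from the others in base composition. It held 4 CpG dinucleotides and 43.7% G and C, against 20 CpG at Fgfr4, 26 and 30 at the upper and inner starts of Fgfr3, and 37 at Fgfrl1. The median over 21263 promoters of protein-coding genes was 13. An E-box was found at Fgfr2 and Fgfrl1, and 7.84% of all promoters held one. GC boxes numbered 4 at Fgfr4, at Fgfrl1 and at the upper start of Fgfr3, and 2 that overlap each other by shared bases at its inner start. Fgfr2 had no GC box, which 46.2% of promoters held. CCAAT boxes numbered 2 at Fgfrl1 and 1 at the upper start of Fgfr3 (38.2% of promoters), and none of the 5 runs held a TATA box (12.6%). A match describes letters and does not show binding.

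Peaks overlapped the Fgfr2 promoter run in 1 library, the Fgfr4 run in 4, and the runs of Fgfr3 and Fgfrl1 in all 8. Promoters with up to 4 CpG were overlapped in all 8 libraries in 1.52% of cases and in none in 93.0%. Those with at least 20 CpG were overlapped in all 8 in 82.7%. Fgfr2 therefore carried its mark beside, not on, a promoter run of low CpG content in 7 of 8 libraries.

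Fgfr1 (chromosome 8, 25518759 to 25575718, 57.0 kb) had more sequence under peaks than any other receptor in 6 of 8 libraries, those of every isolate but 4_C2. Measured over the gene and 1 kb beyond each end, peaks covered 2574 and 1969 bp in the 4_C2 null libraries, against 6561 and 4095 bp in the 4_1 floxed libraries. In pair 6 they covered 11585 and 12659 bp in the 6_C4 null libraries, against 13380 and 15750 bp in the 6_1 floxed libraries. Both null libraries lay below both floxed libraries in each pair, as for 11.1% of 14588 genes with a peak, against 0.254% of genes with both null libraries above.

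Over all libraries Fgfr1 averaged 7197 ± 5709 bp in null and 9946 ± 5513 bp in floxed libraries (SD, n = 4 each), and the genotypes overlapped. No receptor had every null library below every floxed library or the reverse, which 1.86% and 0.0617% of genes had. The difference of -2750 bp was within the spread between all libraries, which includes the spread between isolate pairs (two-sided exact permutation p = 0.486 over 70 splits, of which the smallest possible p is 0.0286, and adjusted p = 0.98 over all genes with a peak). With genotypes exchanged within pairs only, the exact permutation p was 0.0556, the smallest that allows. Tests over the 70 splits called 0.0% of genes between the genotypes after adjustment, and 78.9% of genes had a lower mean in null libraries. Expressed per covered Mb of each library, Fgfr1 had 85.3 and 90.2 in 4_C2 against 208 and 154 in 4_1, and 294 and 347 in 6_C4 against 302 and 359 in 6_1. On that scale 0.576% of genes had every null library below every floxed library, and 1.45% had both null libraries below in each pair. The pair 6 isolates of Fgfr1 overlapped, and the genotype difference was -51.4 (exact permutation p = 0.543).

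**Figure D1:**
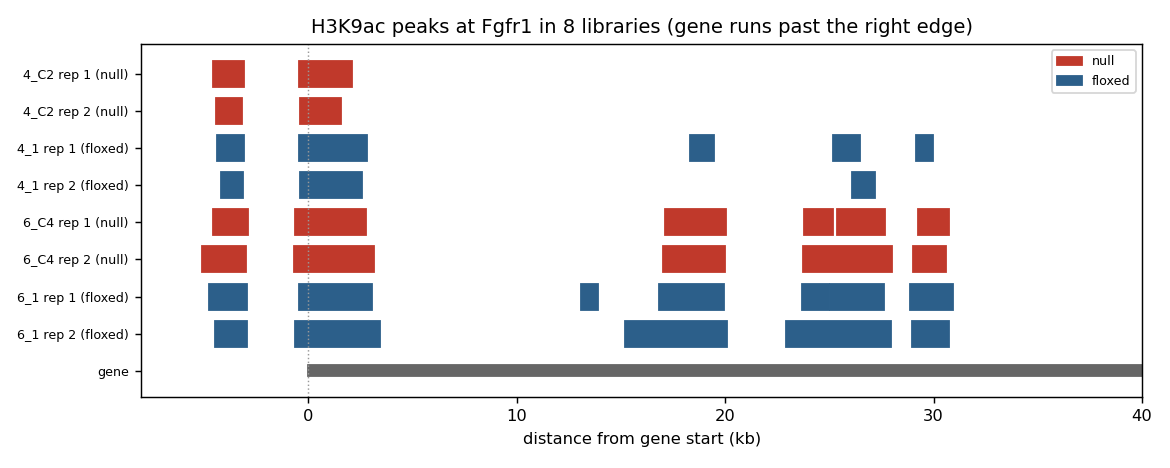
Peaks of H3K9ac at Fgfr1 in 8 libraries, null in red and floxed in blue, by distance from the gene start in kb, with the first part of the gene as a grey bar. All libraries have a peak at the start and one upstream, and peaks between 15.2 and 30.9 kb are present in 6_C4, 6_1 and 4_1 but not in 4_C2.

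The start peak of Fgfr1 was long and reached mostly into the gene. Counted from the start, it ran from -445 and -381 bp to 2128 and 1587 bp in 4_C2, against -457 and -387 bp to 2835 and 2583 bp in 4_1. In pair 6 the inner border lay at 2800 and 3152 bp in 6_C4 and at 3055 and 3438 bp in 6_1. The inner border averaged 2417 ± 697 bp in null and 2978 ± 362 bp in floxed libraries (SD, n = 4 each, p = 0.229 by exact permutation). The difference was thus within the spread between libraries. The outer border lay at -652 and -673 bp in 6_C4, against -461 and -640 bp in 6_1. It lay farther out in pair 6 than in pair 4, at -606 ± 98.0 bp against -418 ± 39.1 bp (SD, n = 4 each, p = 0.0286 by exact permutation, the smallest it can reach). It was 1 of 16 border comparisons made over 4 receptors, and its p is not adjusted. The pairs came closest at -461 bp in 6_1 replicate 1 and -457 bp in 4_1 replicate 1. How many genes have such an order of the pairs was not counted.

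Region width was tested across the genome with limma, over 10171 regions found in all 8 lists, as log2 covered bp centred on each library's median with isolate pair as a covariate. No region was called narrower (0.0%) or wider (0.0%) in null libraries, and an unadjusted limma p under 0.05 was found for 327 narrower (3.22%) and 378 wider regions, among them no narrower and 1 wider receptor region. The start region of Fgfr1 (25518086 to 25522197) covered 2956 ± 841 bp in null and 3465 ± 467 bp in floxed libraries (SD, n = 4 each). Its log2 change was -0.13 ± 0.11 (SE, limma adjusted p = 0.80). The genotype effect was higher in pair 6 than in pair 4 by 0.40 ± 0.18 on the log2 scale (SE, limma adjusted p = 0.751), which was not called.

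A separate peak lay upstream of Fgfr1, at -5.08 to -2.89 kb from its start (25513674 to 25515869), in all 8 libraries. It covered 1477, 1244, 1656 and 2120 bp in the null libraries 4_C2 and 6_C4, against 1259, 1078, 1827 and 1532 bp in the floxed libraries 4_1 and 6_1. Means were 1624 ± 371 bp in null and 1424 ± 327 bp in floxed libraries (SD, n = 4 each), and the groups overlapped. The log2 change of 0.33 ± 0.11 (SE, limma adjusted p = 0.714) was not called, although the unadjusted limma p was 0.0153. The start region beside it had a change of the opposite sign, and the difference between these regions was not tested.

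Deep inside Fgfr1, from 4 kb past the start to 1 kb before the end, the isolates did not overlap in bp. No peak was present in either 4_C2 library, against 3268 and 1124 bp in 4_1. Peaks covered 8132 and 8833 bp in 6_C4, against 9863 and 11671 bp in 6_1. Per covered Mb the pair 6 isolates overlapped, with 206 and 242 in 6_C4 against 223 and 266 in 6_1, while 4_C2 had 0 and 0 against 104 and 42.1 in 4_1. Of 5918 genes over 30 kb, 1.99% likewise had, in bp, both null libraries below both floxed libraries in each pair, and 41.4% had any peak inside. A peak inside in all pair 6 libraries and neither 4_C2 library was found in 4.31% of these genes, and 4.7% had both 4_C2 libraries below both 4_1 libraries. Null libraries averaged 4241 ± 4906 bp and floxed libraries 6482 ± 5079 bp (n = 4 each, with SD). Their difference had an exact permutation p of 0.514 (and 0.0556 with genotypes exchanged within pairs only, the smallest p that allows). This stretch was singled out after its values were seen.

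The mean difference between isolate pairs was larger than that between genotypes. There pair 6 averaged 9625 ± 1538 bp and pair 4 averaged 1098 ± 1541 bp (SD, n = 4 each, p = 0.0286 by exact permutation, the smallest it can reach). Every pair 6 library lay above every pair 4 library inside 8.69% of the long genes, and a mean in pair 6 at least as high as that of Fgfr1 was found in 0.727% of them. Over its whole span Fgfr1 covered 13344 ± 1766 bp in pair 6 and 3800 ± 2047 bp in pair 4 (SD, n = 4 each, exact permutation p = 0.0286, adjusted p = 0.101 over all genes). Every pair 6 library exceeded every pair 4 library at 27.9% of genes in bp (0.267% had the reverse) and at 4.53% per covered Mb. Fgfr1 belonged to both sets.

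The inner peaks formed 3 regions found in several lists. The region 15.2 to 20.1 kb past the start (25533971 to 25538849) was in 5 lists, that at 22.94 to 28.02 kb (25541697 to 25546784) in 6 and that at 28.9 to 30.9 kb (25547644 to 25549668) in 5. A short peak at 13.07 to 13.90 kb was in 1 library, 6_1 replicate 1. The gene table places noncoding RNA genes here, Gm31288 from 0.93 to 27.02 kb and Gm16159 from 29.91 to 37.32 kb past the Fgfr1 start. An annotated end of Gm31288 falls in the middle region and one of Gm16159 in the last. The table gives no exons, so these regions were not placed in exons or introns.

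The middle inner region was the one present in both 4_1 libraries, at 1265 and 1124 bp, against 0 bp in both 4_C2 libraries. In pair 6 it covered 3705 and 4270 bp in 6_C4, against 3885 and 5031 bp in 6_1. Among 15383 regions that 4 or more lists shared, after 100 bp had been added to each width as a pseudocount, the genotype effect in pair 6 minus that in pair 4 was 3.54 ± 0.25 on the log2 scale (SE, limma adjusted p = 0.00256). That test called 2.25% of regions, 60 with a negative and 286 with a positive difference. Without 4_C2 replicate 1 it called 127 and 1362 of 15046. Both 4_C2 libraries had 0 bp there, so they add almost no spread to the SE and p. Among the 10171 regions in all 8 lists the same test called 0.0%. In bp over the whole inner stretch, which also holds the other inner peaks, null minus floxed was -2196 in pair 4 and -2284.5 in pair 6. At the middle region alone, the mean gap in bp was larger in pair 4 than in pair 6. The log2 value at the middle region depends on the pseudocount, since 4_C2 had no peak, and was 1.63 with 500 bp (limma adjusted p = 0.035). With each list cut to its 12041 widest peaks, as many as the shortest list holds, it was 1.62 and not called (limma adjusted p = 0.833), and 4_1 replicate 1 then had no peak there.

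The genotype effect averaged over the pairs was not called for any of these 3 regions. Its log2 value was -0.97 ± 0.79, -1.77 ± 0.73 and -0.79 ± 0.69 (SE) from the first region to the last, each with a limma adjusted p of 0.80. Without 4_1 replicate 1 the first was -0.12, the last -0.05 and the middle one -1.42. In the fit with no library left out, 0.111% of regions were called narrower and 0.0% wider. At an unadjusted limma p under 0.05, 401 regions (2.61%) were narrower in null libraries, with no receptor region among them. Slightly fewer regions were wider in null libraries at that level, among them the upstream region of Fgfr1 and the start region of Fgfrl1. Neither of these receptor regions was called (limma adjusted p of 0.80 for both). For the first and the last inner region the difference in effect between pairs was not called (1.44 ± 1.60 and 1.32 ± 1.38 on the log2 scale, SE, limma adjusted p of 0.865 for both). Without 4_1 replicate 2, the only library of 4_1 without them, both were called (3.21 and 2.86, limma adjusted p = 0.0208 and 0.00972). Without 4_1 replicate 1 they were -0.33 and -0.21. In the equal-length lists peaks inside Fgfr1 covered 0 bp in both 4_C2 libraries, 0 and 1124 bp in 4_1, 5268 and 8833 bp in 6_C4, and 7735 and 11671 bp in 6_1. Every pair 6 library still lay above every pair 4 library, and the 2 isolates overlapped within each pair.

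Fgfr2 (chromosome 7, 130162451 to 130266808, 104.4 kb, read from its higher coordinate) had a single peak in every library, just inside its annotated start. The near border lay 103 and 438 bp inside in 4_C2, against 101 and 160 bp in 4_1, and 117 and 85 bp inside in 6_C4, against 125 bp inside in 6_1 replicate 1. In 6_1 replicate 2 it lay outside, at -280 bp, so the start base was covered in 1 of 8 libraries. Of 7830 genes with a start peak in all 8 libraries, 2.94% had the start base covered in at most 1, and 88.1% in all 8. The rest of this long gene carried no peak in any library.

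The Fgfr2 peak covered 3439 and 1890 bp in 4_C2, against 2463 and 1875 bp in 4_1, and 2246 and 2070 bp in 6_C4, against 3111 and 2678 bp in 6_1. Both null libraries lay below both floxed libraries in pair 6, while in pair 4 the isolates overlapped. How many genes have that order in pair 6 alone was not counted, and 78.9% of genes had a lower mean in null libraries. Means were 2411 ± 700 bp in null and 2532 ± 514 bp in floxed libraries (SD, n = 4 each, p = 0.771 by exact permutation). The centred log2 width change was 0.05 ± 0.18 (SE, limma adjusted p = 0.964), and -0.087 without centring. The effect in pair 6 minus that in pair 4 was -0.69 ± 0.29 on the log2 scale (SE, limma adjusted p = 0.741) and was not called. The pairs differed by less than the spread between libraries, at 2526 ± 466 bp in pair 6 and 2417 ± 734 bp in pair 4 (SD, n = 4 each, exact permutation p = 0.80).

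**Figure D2:**
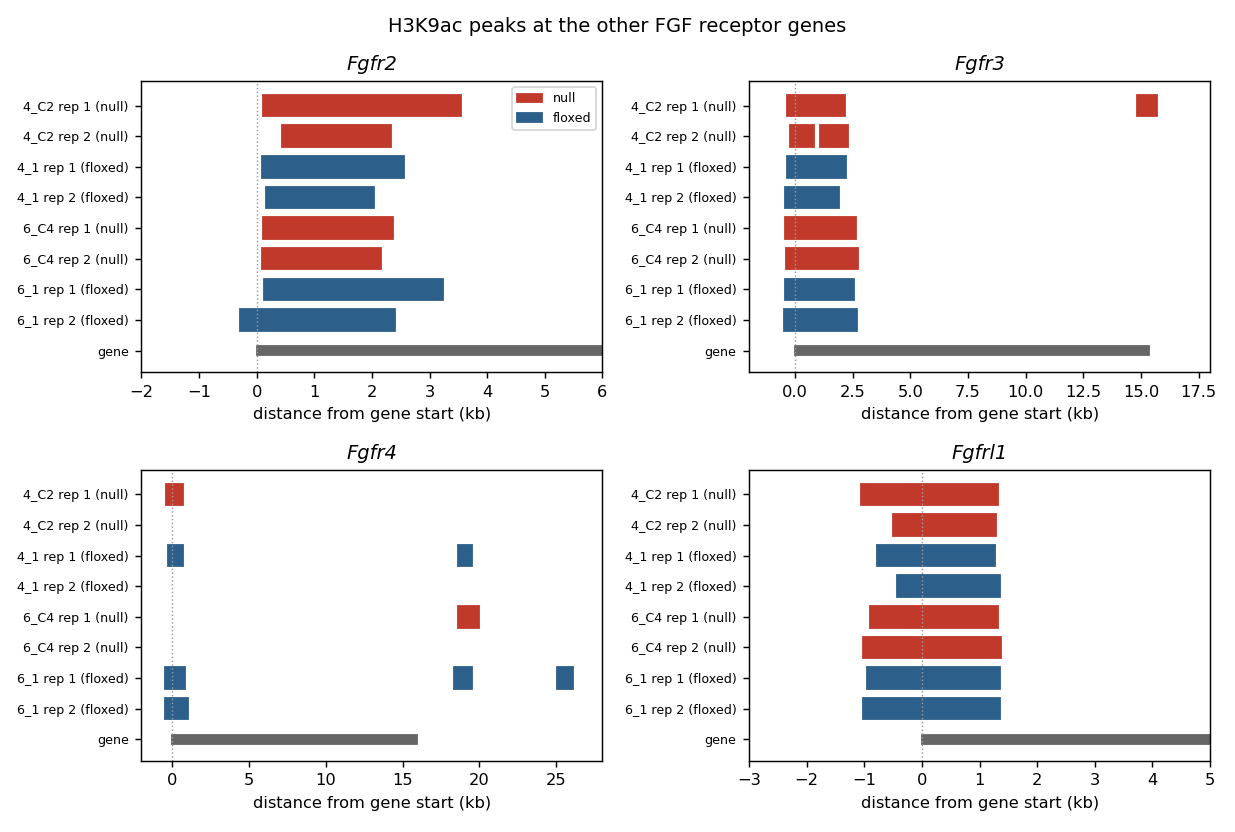
Peaks of H3K9ac at Fgfr2, Fgfr3, Fgfr4 and Fgfrl1 in 8 libraries, null in red and floxed in blue, by distance from the gene start in kb (scales differ), with the gene as a grey bar. The Fgfr2 peaks begin inside the start in 7 libraries, Fgfr4 lacks a start peak in 4, and the inner border of Fgfrl1 barely moves.

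Fgfr3 (chromosome 5, 33721724 to 33737068, 15.3 kb) had a peak over both of its annotated starts in every library. It covered 2546 and 2211 bp in 4_C2, against 2542 and 2331 bp in 4_1, and 3120 and 3132 bp in 6_C4, against 2960 and 3163 bp in 6_1. In 4_C2 replicate 2, the shortest list, it was split into 2 peaks, of 1017 and 1194 bp. In 4_C2 replicate 1 alone a further peak of 893 bp lay across the gene's far end.

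At Fgfr3 the genotype means were close. The start region averaged 2752 ± 453 bp in null and 2749 ± 380 bp in floxed libraries (SD, n = 4 each). Its centred log2 change was 0.13 ± 0.07 (SE, limma adjusted p = 0.725) and -0.0031 without centring. Over the whole span, pair 6 covered 3094 ± 91.0 bp and pair 4 covered 2631 ± 556 bp (SD, n = 4 each, exact permutation p = 0.143). Without 4_C2 replicate 1, whose extra peak at the far end enters that sum, the difference was 732 bp (exact permutation p = 0.0286, the smallest it can reach). With any other library left out it ran from 323 to 508 bp (exact permutation p from 0.2 to 0.314). The inner border of the first peak lay 2649 ± 81.6 bp past the start in pair 6 and 1772 ± 656 bp in pair 4 (SD, n = 4 each, p = 0.0286 by exact permutation, the smallest it can reach and not adjusted). The difference of 876 bp was 555 bp without 4_C2 replicate 2, whose first peak ended at 809 bp and whose second reached 2279 bp. The share of genes whose inner border separates the pairs was not counted.

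Fgfr4 (chromosome 13, 55152818 to 55168759, 15.9 kb) was the one receptor whose start peak was missing from some libraries. It covered 1127 bp in 4_C2 replicate 1 and 0 bp in replicate 2, against 1037 bp in 4_1 replicate 1 and 0 bp in replicate 2. It covered 0 bp in both 6_C4 libraries, against 1340 and 1464 bp in both 6_1 libraries. The peak was therefore found in 1 of 4 null and 3 of 4 floxed libraries, and the pair 4 isolates did not differ in number. A start peak in both 6_1 and neither 6_C4 library was found at 0.629% of genes, and the reverse at 0.16%.

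Covered length at Fgfr4 averaged 282 ± 564 bp in null and 960 ± 665 bp in floxed libraries (SD, n = 4 each, exact permutation p = 0.257, adjusted p = 0.98 over all genes). The start region, in 4 lists, had a log2 change of -1.78 ± 1.25 with the 100 bp pseudocount (SE, limma adjusted p = 0.80), a value that depends on it where no peak is present. The genotype effect in pair 6 minus that in pair 4 was -3.97 ± 2.10 on the log2 scale (SE, limma adjusted p = 0.865). The Fgfr4 peaks were narrow, and none was among the 12041 widest of its library. Presence or absence at this start therefore rests on peaks that the equal-length lists drop. Another peak past the gene's far end, 18.35 to 19.97 kb from the start, was in 1 null library (6_C4 replicate 1) and 2 floxed libraries (replicate 1 of 4_1 and of 6_1).

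Fgfrl1 (chromosome 5, 108694229 to 108706950, 12.7 kb) had a peak whose inner border varied least of the 4 receptors with a start peak in every library. That border lay 1324 and 1286 bp past the start in 4_C2, against 1272 and 1347 bp in 4_1, and 1318 and 1373 bp in 6_C4, against 1347 and 1355 bp in 6_1. That spread, from 1272 to 1373 bp, was matched or undercut at 0.281% of 7830 genes with a start peak in all 8 libraries, where the median range was 649 bp. The outer border ranged over 630 bp, against a median of 474 bp. The outer border ranged less, over 292 bp, at both Fgfr1 and Fgfr3. The inner border ranged over 1851 bp at Fgfr1 and 1507 bp at Fgfr2. At Fgfr3 it ranged over 1924 bp, and over 828 bp without 4_C2 replicate 2, whose start peak is split. The noncoding RNA gene Gm42151 has an annotated end 163 bp before the Fgfrl1 start, inside the same peak.

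Fgfrl1 covered 2325 and 1788 bp over its span in 4_C2, against 2046 and 1773 bp in 4_1, and 2222 and 2374 bp in 6_C4, against 2301 and 2356 bp in 6_1. The means were 2177 ± 267 bp in null and 2119 ± 267 bp in floxed libraries (SD, n = 4 each, p = 0.743 by exact permutation). The log2 width change was 0.19 ± 0.09 (SE, limma adjusted p = 0.72). Pair 6 averaged 2313 ± 68.3 bp and pair 4 averaged 1983 ± 260 bp (SD, n = 4 each, exact permutation p = 0.0857). Without 4_C2 replicate 1 that difference was 444 bp (exact permutation p = 0.0286, the smallest it can reach). With any other library left out it ran from 260 to 361 bp (exact permutation p from 0.0857 to 0.143).

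**Figure D3:**
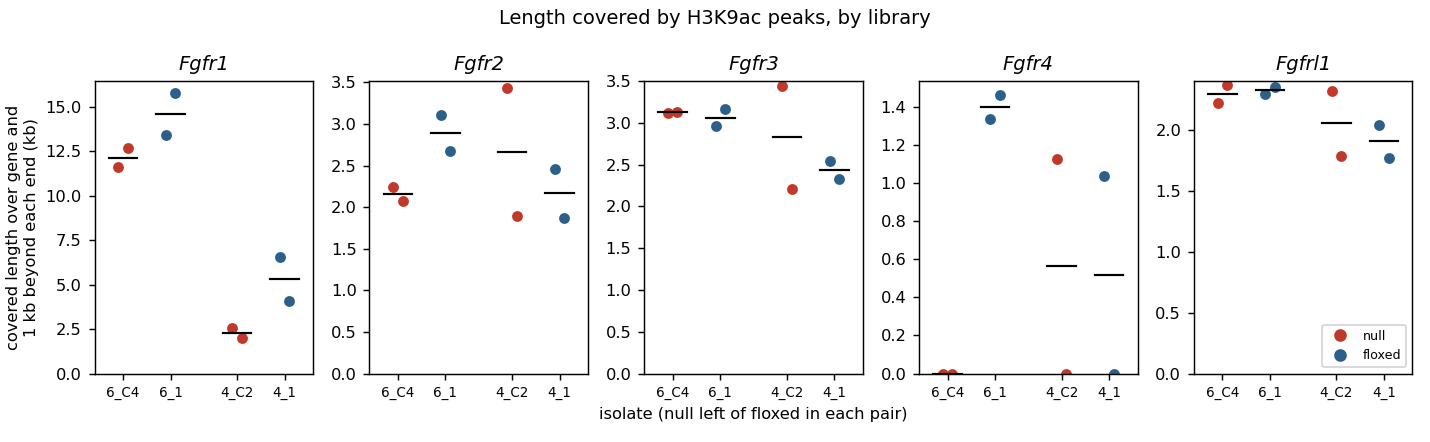
Length covered by H3K9ac peaks over each receptor gene and 1 kb beyond each end, in kb, with 1 point per library and a bar at each isolate's mean, null isolates left of floxed isolates within a pair. Only Fgfr1 separates the pairs by a wide margin, from 11585 to 15750 bp in pair 6 and from 1969 to 6561 bp in pair 4.

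The receptors were next set side by side on a scale that divides by the length each list covers. Per covered Mb, pair 6 exceeded pair 4 at Fgfr1 (325 ± 32.2 against 134 ± 58.3, SD, n = 4 each, exact permutation p = 0.0286). At Fgfr2 it was lower (61.2 ± 6.27 against 87.2 ± 19.0, exact permutation p = 0.0286), an order in which every pair 6 library lies below every pair 4 library and which 26.4% of genes had. It was also below pair 4 at Fgfr3 (76.0 ± 8.34 against 95.8 ± 14.8) and at Fgfrl1 (56.8 ± 5.86 against 72.6 ± 8.22), each with an exact permutation p of 0.0571. Between the genotypes, both null libraries lay above both floxed libraries in each pair at Fgfr3 and at Fgfrl1 on this scale, as at 4.54% of genes. The means were 95.1 ± 15.6 in null and 76.7 ± 9.13 in floxed libraries at Fgfr3, and 70.1 ± 11.5 in null and 59.2 ± 7.52 in floxed libraries at Fgfrl1 (n = 4 each with SD, exact permutation p = 0.143 for both). Over all libraries the genotypes overlapped at both genes. In bp the isolates overlapped within each pair at both, so this order too depended on the scale. The lists covered 30.2 and 21.8 Mb in 4_C2, against 31.5 and 26.7 Mb in 4_1. They covered 39.4 and 36.5 Mb in 6_C4, against 44.3 and 43.9 Mb in 6_1. The Fgfr3 sum includes the far-end peak of 4_C2 replicate 1. At Fgfr2, Fgfr3 and Fgfrl1 the mean in bp had been higher in pair 6, so the direction of the pair difference depended on the scale, and at Fgfr1 it did not.

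**Figure D4:**
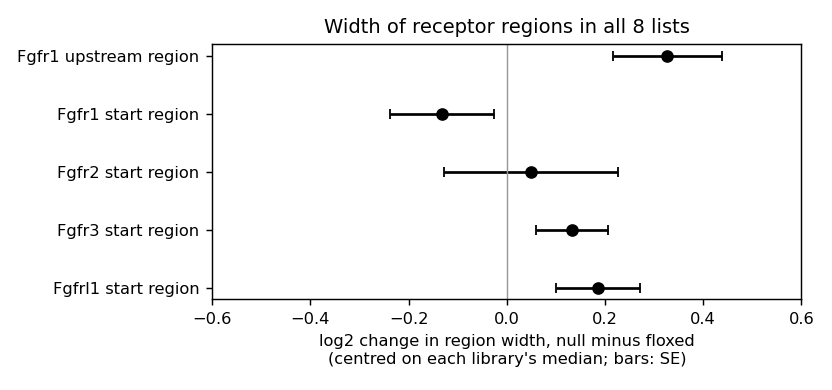
Log2 change in the width of the receptor regions found in all 8 lists, null minus floxed, centred on each library's median (points), with standard errors (bars). The changes run from -0.13 at the Fgfr1 start to 0.33 upstream of it, and none was called.

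Over the 4 receptor start regions in all 8 lists, 1 had a log2 change below 0, the median was 0.09, and 0 were called in either direction. Of all 10171 regions 45.1% were below 0, with a median of 0.02. Before centring, the median region was narrower in null libraries by a log2 change of -0.14 (11.08 ± 0.19 in null and 11.22 ± 0.15 in floxed libraries, SD, n = 4 each, p = 0.343 by exact permutation). The receptor changes given are relative to that shift.

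Partners of the receptors were counted from lists chosen with earlier results known. Of 22 FGF ligand genes, only the 16 with a known strand were counted. They mostly lacked a constant start peak, with 3 in all 8 libraries, 8 in some and 5 in none. Of the 8, 6 had it in fewer and 0 in more null than floxed libraries. Of 2712 genes with a start peak in some libraries, 1665 had it in fewer and 472 in more (9.52% and 2.7% of all genes). The 3 ligand genes with it in all 8, Fgf2, Fgf5 and Fgf11, had a median log2 width change of 0.05. The values were 0.28 ± 0.14 at the epiblast gene Fgf5, 0.05 ± 0.09 at Fgf11 and 0.03 ± 0.08 at Fgf2 (SE), with limma adjusted p of 0.724, 0.911 and 0.95. Of the 24 co-receptors, heparan sulphate enzymes and other membrane partners, 16 had a known strand. Of these 16, 9 had a start peak in all 8 libraries, with a median change of 0.01 and 4 of 9 below 0. The largest were at the heparan sulphate 6-O-sulphotransferase genes Hs6st2 (-0.22 ± 0.17) and Hs6st1 (-0.13 ± 0.13) and the polymerase gene Ext2 (0.19 ± 0.13), with limma adjusted p of 0.785, 0.833 and 0.762.

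Genes for the proteins that act just below the receptors were almost all marked. A start peak in all 8 libraries was found for 18 of 19, and the median log2 change was 0.04 with 7 of 18 below 0. The largest changes were at the docking protein gene Frs2 (-0.39 ± 0.22, SE, limma adjusted p = 0.724), at Stat3 (0.31 ± 0.18, limma adjusted p = 0.736) and at the adaptor gene Grb2 (0.17 ± 0.11, limma adjusted p = 0.745). Of 41 other receptor tyrosine kinase genes with a known strand, 15 had a start peak in all 8 libraries, 20 in some and 6 in none. Of the 20, 13 had it in fewer null than floxed libraries and 2 in more, beside 1665 and 472 of the 2712 genes above. Regions at 18 of these kinases were tested, with a median of 0.05 and 6 below 0. They include joined regions in all 8 lists that touch the start in only some libraries. Such were Tyro3, Ddr1 and Ltk, with a start peak in 4, 5 and 2 libraries, and at Tyro3 in 0 of pair 4. Changes were largest at the Wnt receptor gene Ror2 (-0.33 ± 0.17), at Tyro3 (0.22 ± 0.11) and at the pseudokinase gene Ptk7 (0.20 ± 0.12), with limma adjusted p of 0.724, 0.724 and 0.739. Across these lists limma called 0 regions, and 0 had an unadjusted p under 0.05.

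The genes most like each receptor were those with the smallest summed root mean square difference in covered bp, over the start window and over the whole span, across 8 libraries and 17492 other genes. For Fgfr1 the nearest was Cbx7, at 656 bp, well ahead of Eps15l1 at 1921 bp and Bcor at 2095 bp. For Fgfr2 they were Tmem62, Cnr1 and Exoc3, between 569 and 575 bp. For Fgfr3 the nearest was Cdc25a at 266 bp, followed by Hcn2 and Cuedc2 at 419 and 421 bp. For Fgfr4 they were Gjb6, Kcnh8 and Zfp677, between 258 and 304 bp, and for Fgfrl1 they were Hat1, Atrn and H2bc12, between 253 and 272 bp. These are descriptions of similar peak lengths in the same 8 lists, which share the differences in list length.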

How the data were processed

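The authors deposited 1 peak list for each of 8 H3K9ac libraries, and each holds peak coordinates in base pairs without any measure of height or significance. Bowtie 1.1.2, MACS 1.4.2 and mm10 are named per the submitters' processing notes, while no source used here gives the threshold, control or filters. The 16 H3 and input samples were not used here. Genes came from the RefSeq table of GRCm38.p6 (mm10 is its primary sequence), strands from the RefSeq promoter table (Fgfr1 was set to the plus strand by hand, from general knowledge), and coordinates count from 1.

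Overlapping peaks (1 bp or more) were joined across lists, giving 26034 regions. Region widths were tested with limma 3.58.1 in R 4.3.3 with Benjamini-Hochberg adjustment at 0.05, and single genes with two-sided exact permutation tests. Python 3.11.15, numpy 2.4.6, pandas 2.3.3 and matplotlib 3.10.9 were used. The tests were tried on simulated data. Genes with a log2 change are those of the receptors and, by a fixed rule, the 3 largest of each list. The members and lists were chosen with earlier results of these data known. The inner regions of Fgfr1, and the use of the test over regions in at least 4 lists for them and for Fgfr4, were chosen after seeing the data.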

Additional observations from a re-analysis of the deposited data

Results flagged for a closer look

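Among the 4 null libraries, replicate 1 of 4_C2 stood far from the others at Fgfr4, with 1127 bp covered over the whole span and the same 1127 bp in the start region, where the other 3 had no peak. Both values are the same peak. With 3 values of 0, a single peak of any width would stand apart in this way, so the rate of about 1 in 20 groups at which chance gives such a value does not apply.

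At the middle region inside Fgfr1 the null minus floxed change in pair 6 exceeded that in pair 4 by 3.54 on the log2 scale with a 100 bp pseudocount (limma adjusted p = 0.00256). Both 4_C2 libraries had no peak there, so they add almost no spread to that test. List length differed between the isolates of both pairs. The 4_C2 lists held 14947 and 12041 peaks against 15315 and 13260 in 4_1, and the 6_C4 lists 18932 and 17849 against 20809 and 18477 in 6_1. The part of list length in the result was not tested beyond the equal-length lists, in which the difference was not called.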

How the results depend on the processing

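In the test over regions in at least 4 lists, 17 were called narrower and 0 wider, against 0 to 64 and 0 to 6 with 1 library left out. Of 149 recomputed values over 34 results, with no library left out, 138 neither reversed nor crossed the threshold, or, for counts of libraries, did not change. Among them are both Fgfr4 differences in covered length, which were 0 in the equal-length lists and so had no direction. Some of the 138 could not change. Fits with a replicate block or without the pair term keep the log2 change. Permutation within pairs or blocks keeps the difference, with smallest p of 0.0556 and 0.125. Scaling to covered bp of the library turned the genotype difference at Fgfr2 to 8.67 and the pair difference to -26.0 at Fgfr2, -19.9 at Fgfr3, -1.67 at Fgfr4 and -15.8 at Fgfrl1, in bp per covered Mb. Without centring, the log2 width change was -0.087 at Fgfr2 and -0.0031 at Fgfr3. With equal-length lists the pair difference at Fgfr3 was 686 bp (exact permutation p = 0.0286, the smallest it can reach and not adjusted). In those lists the interaction at the middle inner region of Fgfr1 was 1.62 and not called, that at the first inner region was -0.39, and Fgfr4 had a start peak in 0 libraries. The cause was not tested, except that the equal-length lists drop narrow peaks by construction.

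Leaving out each library in turn, the genotype difference in covered length ran from -4700 to -815 bp at Fgfr1, from -463 to 72.6 bp at Fgfr2, from -57.1 to 188.0 bp at Fgfrl1 and from -999 to -511 bp at Fgfr4. The pair difference ran from -85.4 to 450.2 bp at Fgfr2, from 323 to 732 bp at Fgfr3, from -94.3 to 394 bp at Fgfr4 and from 260.2 to 444 bp at Fgfrl1. The log2 width change at Fgfr2 ran from -0.14 to 0.17. The interaction ran from -0.33 to 3.21 at the first and -0.21 to 2.86 at the last inner region of Fgfr1, from 3.37 to 3.69 at the middle one, and from -0.27 to 0.12 upstream of Fgfr1. These fits leave some isolates with 1 library, which is assumed to vary like the others. Deviations of same-numbered libraries correlated at 0.109 in pair 4 and 0.0624 in pair 6, so numbers were not taken to pair them. With the replicate number within isolate pair as a block, the log2 width changes were -0.13 at Fgfr1, 0.05 at Fgfr2, 0.13 at Fgfr3 and 0.19 at Fgfrl1, and no call changed. The design is balanced, so the block cannot move these changes and alters only their SE and p. The block test of covered length allows a smallest p of 0.125. The 4 settings that leave out a library that has the peak gave no value for the Fgfr4 region, which then was in fewer than 4 lists.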
